A study of Homo sapiens with 9 samples.

Results

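The ERK inhibitor SCH772984 was compared directly with the TBK1/IKKε inhibitor compound 1 in MIA PaCa-2 cells, gene by gene. The comparison used the 3 libraries labelled with SCH772984 and the 3 labelled with compound 1, which are 6 of the 9 samples of the series, and every gene of the deposited count table. The line MIA PaCa-2 was established from a human pancreatic tumor, and its genotype was labelled WT in every sample. Both groups received an inhibitor at 1 μM for 24-h, and neither group contained untreated cells. The other 3 samples received 0.1% DMSO for the same 24-h. They were left out of the tests, and their levels are given only to show where the vehicle lay.

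The ERK kinases end the RAS–RAF–MEK–ERK cascade, which is driven by mutant RAS in most pancreatic cancers. They phosphorylate transcription factors of the ETS and AP-1 families and induce their own inhibitors, among them Sprouty proteins and dual-specificity phosphatases. TBK1 and IKKε are related kinases of the IKK family that act below nucleic acid sensors, where they activate IRF3 and interferon induction, and that also feed into NF-κB signaling, a major driver of chemokine genes.

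The 2 inhibitor groups differed over most of the transcriptome. Of 13863 genes that passed the filter on low counts, 4674 (33.7%) were higher and 4519 (32.6%) were lower with SCH772984 than with compound 1, which is 66.3% in either direction and is the background for every count of list members below (edgeR quasi-likelihood test, adjusted p under 0.05 after Benjamini-Hochberg adjustment). With a difference of at least 2-fold required as well, 2293 genes (16.5%) were higher and 1396 (10.1%) lower. The larger differences were more often higher with SCH772984: 752 genes were higher and 238 lower by at least 4-fold, and 102 were higher and 25 lower by at least 16-fold. This excess lay in genes of low level: of 5 equal bins by level, the lowest held 978 genes higher and 205 lower by at least 2-fold, and the highest held 163 higher and 372 lower. Genes of low level can pass the filter through the group where they are high. The median difference was 0.98 on the log2 scale among the higher genes and -0.73 among the lower genes, with a median standard error of 0.13 over all tested genes. For 3624 of the 3689 genes that differed by at least 2-fold, the mean DMSO level lay nearer to the level with compound 1.

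**Figure D1:**
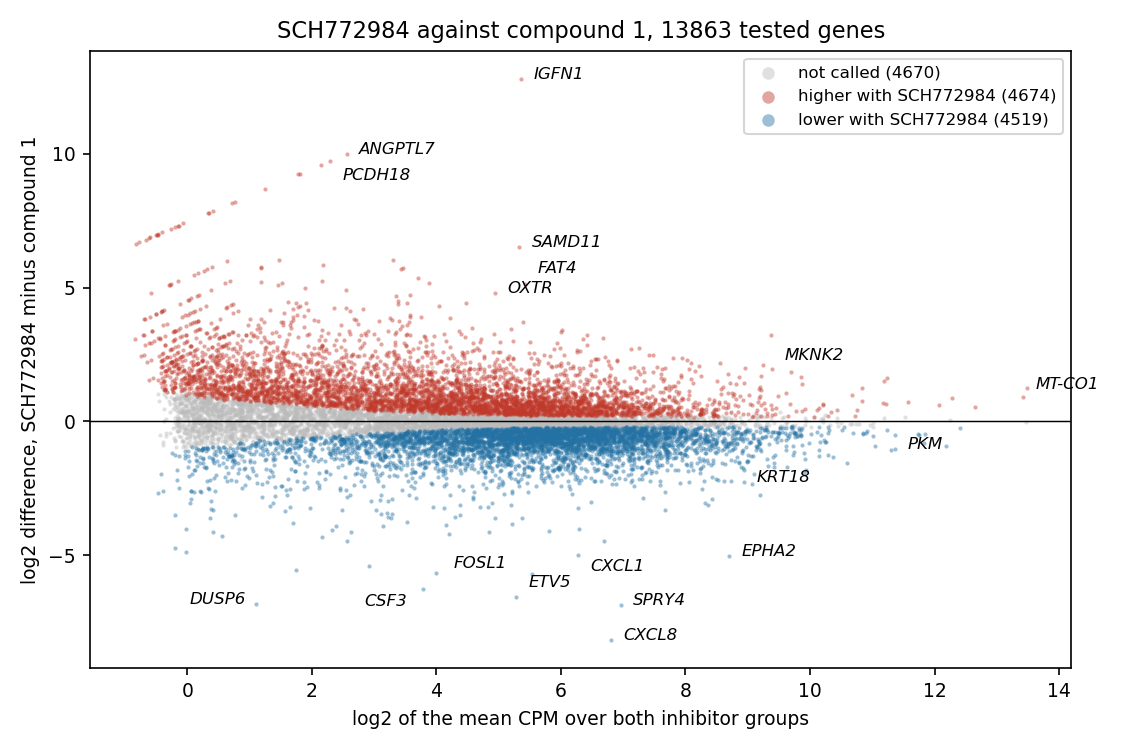
Each point is one of 13863 tested genes, with the log2 of its mean CPM (defined below) over both inhibitor groups on the x axis and the log2 difference (SCH772984 minus compound 1) on the y axis. Red points were higher with SCH772984 (4674 genes), blue points lower (4519 genes) and gray points not called (4670 genes). The straight streaks at the left are genes with few or no counts in one group, for which the fitted difference depends on the prior count.

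The libraries held 11056977 to 13887859 counts with SCH772984, 9652741 to 9840769 with compound 1 and 9464432 to 10286223 with DMSO. Levels are given below as CPM, which are counts scaled by library total and TMM factors, and they are compared within a gene only, since they are not corrected for gene length. The mitochondrially encoded share of counts was 6.23% to 7.52% with SCH772984, against 3.41% to 3.92% with compound 1. Replicate 1 of compound 1 stood apart from the other 2 compound 1 libraries, with chi-square values (divided by the degrees of freedom, across genes) of 10.1 and 7.61, whereas the value was 2.66 between replicates 2 and 3. Nothing in the labels says that replicates came from separate cultures, so the p-values measure the spread between these libraries, which may be technical. Without that library, 4844 genes were higher and 4605 lower. The epithelial keratins KRT8 and KRT18 and the mesenchymal filament VIM were present in every library, CDKN2A and CDKN2B were at 0 counts in all 9, and the leukocyte genes PTPRC and CD3E were at 0 in all 9. The strand setting of the counting was not given in the sources used here, so reads of genes that overlap on opposite strands cannot be told apart. Beside the pairs named with their values, this holds for IRF3, RASA1, NFKBIB, OPTN, IRF1, TRIM25, ERAP2, MCM7, CCND1, EMG1, WARS, SLC1A5, LSS, SREBF2, SQSTM1, EPHA4, ERBB2, PLAU, ADAM19, BCL2L11, CXCL16, RELA and SLC4A8.

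Promoter sequences of genes on which the comparison turns are shown first, as they lie before the start of each gene in RefSeq (GRCh38.p14). Capitals mark matches on either strand to fixed letters that were chosen for each gene. In CXCL8 they mark TGACTCA (AP-1) and GGGNNNNNCC (a loose form of the NF-κB site), and in CXCL1 the NF-κB letters. In EPHA2 they mark TGACGTCA (CRE), and in IFI6 and BST2 GAAANNGAAA (the interferon-stimulated response element, ISRE). In CDK1 and HJURP they mark CCAAT (the CCAAT box). Letters not chosen for a gene stay in lower case, such as a CCAAT match on the other strand in IFI6. The first pair are the chemokine promoters of CXCL8 (chr4:73740412-73740481, plus strand) and CXCL1 (chr4:73869245-73869344, plus strand), and the last stretch of capitals in CXCL1 holds overlapping matches on opposite strands. EPHA2 (chr1:16156093-16156140, minus strand) is the receptor kinase gene with the largest difference. IFI6 (chr1:27672256-27672368, minus strand) and BST2 (chr19:17405725-17405780, minus strand) are interferon-stimulated genes, and the BST2 matches overlap each other. CDK1 (chr10:60778161-60778205, plus strand) and HJURP (chr2:233854583-233854724, minus strand) are genes of mitosis.
CXCL8: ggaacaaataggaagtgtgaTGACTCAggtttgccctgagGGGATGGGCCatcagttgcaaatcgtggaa
CXCL1: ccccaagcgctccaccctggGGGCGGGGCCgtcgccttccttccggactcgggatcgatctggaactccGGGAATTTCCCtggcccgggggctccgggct
EPHA2: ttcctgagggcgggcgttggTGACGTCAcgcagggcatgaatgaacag
IFI6: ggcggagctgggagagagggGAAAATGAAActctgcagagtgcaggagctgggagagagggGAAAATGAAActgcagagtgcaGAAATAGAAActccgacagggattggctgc
BST2: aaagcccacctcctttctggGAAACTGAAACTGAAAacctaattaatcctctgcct
CDK1: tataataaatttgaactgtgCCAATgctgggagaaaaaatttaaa
HJURP: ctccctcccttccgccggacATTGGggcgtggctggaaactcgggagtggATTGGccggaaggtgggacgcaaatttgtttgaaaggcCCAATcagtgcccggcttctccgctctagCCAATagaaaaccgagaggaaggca

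Feedback inhibitors of the ERK pathway were mostly lower with SCH772984. Of 20 genes on the feedback list, 18 were tested, of which 13 were lower, 5 were higher and none was left without a call. Their median log2 difference was -1.09, against 0.03 over all tested genes. SPRY4, a Sprouty protein that blocks signaling from receptors to RAS (chr5:142310427-142326455), stood at 1.62, 1.73 and 2.81 CPM in the SCH772984 libraries and at 255, 248 and 238 CPM in the compound 1 libraries. The groups were far from overlapping, and the DMSO libraries, at 233 to 242 CPM, lay with compound 1. The log2 difference was -6.87 ± 0.15 (SE, n = 3 per group, edgeR adjusted p = 1.38e-18). SPRY4 overlaps SPRY4-AS1 on the other strand.

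DUSP6, a phosphatase that acts on ERK itself, had 1 count in the 3 SCH772984 libraries together and 34 to 47 counts in each compound 1 library. Compound 1 libraries therefore held 162 times the level of the SCH772984 libraries, with an exact 95% interval of 28.5 to 6450 that covers counting error only. DUSP5 and DUSP7, a nuclear and a cytoplasmic phosphatase of the same family, differed by -3.79 ± 0.40 and -2.53 ± 0.11. SPRED2, which recruits the RAS inhibitor NF1 to the membrane, stood at 2.05 to 4.02 CPM with SCH772984 and 34.4 to 37.2 CPM with compound 1, a difference of -3.56 ± 0.18. SPRED1, SPRY1 and SPRY2 were lower by -2.47, -2.56 and -1.04 on the log2 scale.

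The feedback list did not move as one. DUSP2, a nuclear phosphatase, was higher with SCH772984, at 58.7 to 69.8 CPM against 10.6 to 14.3 CPM (2.37 ± 0.13). SPRED3 was higher by 1.87, IL17RD by 0.97, the RAS GTPase-activating protein RASA1 by 0.58 and LZTR1 by 0.56. Of the remaining RAS GTPase-activating proteins on the list, RASA2 was lower by -1.14 and RASA3 by -0.58.

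Transcription factors downstream of ERK were also more often lower than higher. On the list of immediate early, ETS and AP-1 factors, 18 of 28 tested genes were lower and 5 higher, where all tested genes were 33.7% higher and 32.6% lower, with a median log2 difference of -0.80. The 3 members of the PEA3 subfamily of ETS factors were among the genes lowest with SCH772984. ETV5 (chr3:186046308-186110318) stood at 0.684, 0.864 and 0.821 CPM against 85.7, 71.0 and 72.8 CPM with compound 1, ETV4 at 0.345 to 0.855 CPM against 29.8 to 33.2 CPM, and ETV1 at 0 to 0.513 CPM against 13.7 to 15.4 CPM. The log2 differences were -6.57 ± 0.17, -5.66 ± 0.22 and -5.39 ± 0.34. The groups were far apart in all 3 genes. ETV4 overlaps DHX8.

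FOSL1, the AP-1 subunit FRA1 (chr11:65892049-65900573), stood at 0.769, 1.55 and 2.67 CPM with SCH772984 and at 97.5, 80.9 and 95.9 CPM with compound 1 (-5.71 ± 0.20). All 3 SCH772984 libraries lay far below the lowest compound 1 library. Among list members named after their values were seen, the zinc finger factor EGR1 was lower by -3.74 ± 0.22, JUN by -1.94 ± 0.10 and MYC by -1.38 ± 0.08. FOS did not pass the test, at 0.35 with a 95% interval from -0.23 to 0.94. ELF3, an epithelial ETS factor, was higher with SCH772984, at 17.8 to 22.3 CPM against 0.646 to 1.86 CPM (3.76 ± 0.24), as were ATF3 (1.75) and JUND (1.09). ELF3 overlaps ELF3-AS1.

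The chemokine genes CXCL8, CXCL1, CXCL5, CXCL2 and CXCL3 were lower with SCH772984 than with compound 1, and for CXCL8, CXCL1, CXCL5 and CXCL2 every DMSO library lay below every compound 1 library. CXCL8, which encodes interleukin 8 (chr4:73740506-73743716), had the lowest log2 difference of all called genes. It stood at 1.03, 0.518 and 0.753 CPM with SCH772984, at 216, 227 and 224 CPM with compound 1 and at 135 to 142 CPM with DMSO. No library of one group came near the other, and the difference was -8.16 ± 0.16 (edgeR adjusted p = 2.85e-19). CXCL1 (chr4:73869393-73871242) stood at 5.04, 4.84 and 4.38 CPM against 158, 150 and 142 CPM (-4.98 ± 0.12), with 115 to 130 CPM in DMSO. CXCL5 (chr4:73995642-73998779) stood at 8.08 to 10.6 CPM against 138 to 156 CPM (-4.04 ± 0.12), with 83.0 to 89.0 CPM in DMSO.

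Both remaining chemokines of the cluster that were tested, CXCL2 and CXCL3, were lower by -2.88 ± 0.19 and -2.02 ± 0.34. CXCL2 stood at 2.05 to 2.74 CPM with SCH772984, 16.1 to 18.8 CPM with compound 1 and 6.31 to 8.60 CPM with DMSO. These genes attract neutrophils through the receptors CXCR1 and CXCR2. CSF3, the granulocyte colony-stimulating factor, had 0, 6 and 7 counts in the SCH772984 libraries and 227 to 292 counts in the compound 1 libraries (-6.26 ± 0.30). PTGES, which makes prostaglandin E2, stood at 25.3 to 30.1 CPM with SCH772984, 109 to 142 CPM with compound 1 and 47.7 to 63.4 CPM with DMSO (-2.17 ± 0.11).

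Over the whole list of 31 cytokine genes, 12 were tested, 7 of these were lower and 4 higher, and the median log2 difference was -2.09. The 4 higher members were the death ligand TNFSF10, the adhesion molecule ICAM1 (1.79), the transmembrane chemokine CXCL16 (0.81) and CSF1 (0.49). TNFSF10 had 25 to 42 counts in each SCH772984 library and 1 count in the compound 1 libraries together, a ratio of 72.7 with an exact 95% interval of 12.8 to 2900. IL32 was not called, at -0.07 with an interval from -0.66 to 0.52. IL6, CCL2, CCL20, CSF2 and PTGS2 had 0 counts in every library and could not be compared.

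**Figure D2:**
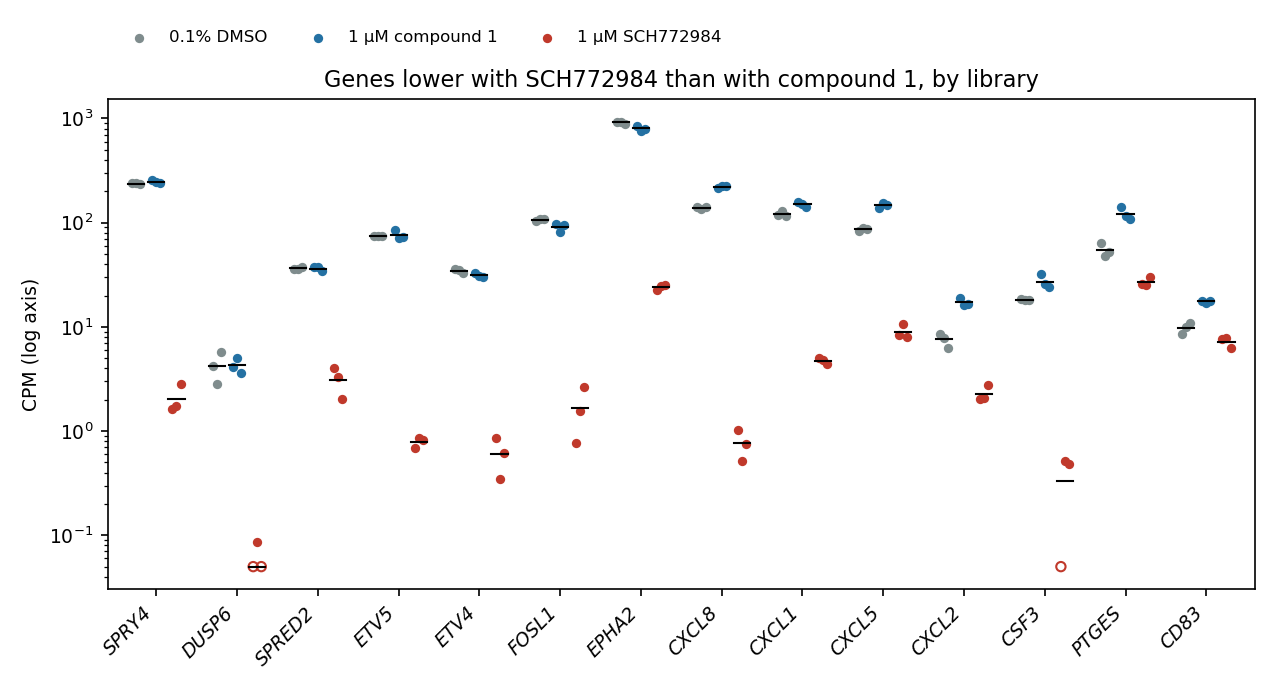
The y axis gives CPM on a log axis and the x axis 14 genes that were lower with SCH772984. Points are single libraries (gray, DMSO; blue, compound 1; red, SCH772984), bars are group means, and open points at 0.05 stand for 0 counts. For SPRY4, SPRED2 and ETV5 the blue and gray points lie close together, whereas for CXCL8, CXCL5, CXCL2, CSF3, PTGES and CD83 the blue points lie above the gray ones.

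The NF-κB subunits and their inhibitors differed much less than these target genes. All 15 members of that list were tested, and 8 were lower and 3 higher. The share called was near the 66.3% of all tested genes, of which 33.7% were higher and 32.6% lower. None of the 8 lower members reached 2-fold. The inhibitor genes NFKBIA and NFKBIB were lower by -0.49 ± 0.10 and -0.68 ± 0.12, and the subunit gene RELB by -0.36 ± 0.13. RELB lost its call in several alternative settings, among them library size scaling (-0.22) and the fit without replicate 1 of compound 1 (-0.30). The subunit REL was higher by 1.18 ± 0.18, at 17.0 to 17.4 CPM with SCH772984 and 4.92 to 9.16 CPM with compound 1. RELA was not called, at -0.02 with a 95% interval from -0.27 to 0.23, and NFKB2 at -0.11 with an interval from -0.31 to 0.08.

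Among the kinases for which the inhibitors are named, MAPK3 and IKBKE were higher with SCH772984 and TBK1 was slightly lower. MAPK3, which encodes ERK1, stood at 64.6 to 74.7 CPM with SCH772984 and 35.5 to 41.9 CPM with compound 1 (0.83 ± 0.10). TBK1 stood at 31.4 to 36.6 CPM against 38.1 to 42.7 CPM (-0.25 ± 0.11), with an adjusted p of 0.0484 in edgeR that crossed the threshold under 12 of 15 alternative settings. IKBKE, which encodes IKKε, stood at 6.33, 5.18 and 5.54 CPM with SCH772984, 2.08, 3.66 and 2.13 CPM with compound 1, and 1.36 to 2.03 CPM with DMSO. The IKBKE groups did not overlap, and the difference was 1.11 ± 0.26.

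Of 21 tested genes on the list of IKK kinases and TBK1 adaptors, 10 were higher and 8 lower, with a median of 0.08, which was -0.14 without replicate 2 of compound 1. The cytosolic DNA sensor CGAS was the lowest, at 7.39 to 7.69 CPM with SCH772984 and 25.5 to 29.6 CPM with compound 1 (-1.84 ± 0.14). The transcription factor IRF5 (1.88 ± 0.20) and the autophagy receptor OPTN, a TBK1 substrate (1.73 ± 0.12), were the highest. IRF3, the main TBK1 substrate in interferon induction, was lower by -0.47 ± 0.09, the kinase CHUK by -0.60 and the adaptor TANK by -0.51. Of 21 tested genes of the RAS–RAF–MEK and RSK list, 9 were higher and 6 lower, with a median of 0.05, which was -0.02 without replicate 2 of compound 1. These are 18 and 15 of 21 genes called on the 2 lists, against 66.3% of all tested genes. The ERK-activated kinase MKNK2 rose most, at 1104, 1007 and 1115 CPM with SCH772984 and 303, 257 and 258 CPM with compound 1 (1.98 ± 0.09). The adaptor SHC1 was the lowest (-2.15 ± 0.08), at 126 to 139 CPM against 583 to 600 CPM.

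Interferon-stimulated genes, which are read out downstream of TBK1 and IRF3, were mostly higher with SCH772984. Of 50 genes on that list 35 were tested, 23 of them were higher and 4 lower, where all tested genes were 33.7% higher and 32.6% lower, and the median log2 difference was 1.33. IFIT1, which binds viral RNA, stood at 60.5, 56.6 and 49.0 CPM with SCH772984 and 14.6, 14.1 and 16.9 CPM with compound 1, so that the lowest SCH772984 library lay well above the highest compound 1 library (1.86 ± 0.12). DMSO libraries held 15.1 to 17.0 CPM of IFIT1. The gene overlaps LIPA on the other strand, as do IFIT2 (1.32) and IFIT3 (1.45). IFI6, a mitochondrial survival factor, stood at 42.8 to 48.9 CPM against 9.26 to 14.2 CPM (2.08 ± 0.14).

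Among the higher members were also PARP14 (2.47 ± 0.16), the guanylate-binding GTPase GBP2 (2.08 ± 0.20), STAT2 (1.54 ± 0.12), IRF1 (1.72 ± 0.15) and the RNA helicase DHX58 (2.42 ± 0.23). BST2, which tethers virus particles, stood at 3.71 to 6.16 CPM with SCH772984 and 0.213 to 0.655 CPM with compound 1 (3.30 ± 0.40). UBA7, the enzyme that activates ISG15, stood at 7.61 to 8.55 CPM against 0.213 to 1.19 CPM (3.77 ± 0.36).

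OASL had a pattern of its own on this list. It had 13, 14 and 24 counts in the SCH772984 libraries and 0 counts in every compound 1 library, whereas the DMSO libraries had 5, 21 and 7. Against a floor of 3 counts per library it was at least 4.09-fold higher with SCH772984 than with compound 1 (edgeR adjusted p = 1.06e-05). The DMSO and SCH772984 libraries overlapped.

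The IFITM genes went the other way. IFITM2 stood at 8.28 to 10.3 CPM with SCH772984 and 29.95 CPM at the lowest with compound 1 (-1.81 ± 0.14). IFITM1 stood at 12.3 to 13.7 CPM against 23.2 to 27.4 CPM (-0.96 ± 0.13), and its DMSO level of 15.1 to 19.4 CPM lay nearer to SCH772984. IFITM3 was not called (-0.26, adjusted p = 0.0512 in edgeR). These genes are close paralogs, and IFITM1 overlaps IFITM2 in the annotation, so reads can be split between them. IRF2 was lower by -0.42, and TRIM25 was not called, at 0.04 with an interval from -0.15 to 0.22.

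The MHC class I list, which covers peptide cutting, transport and presentation, was also mostly higher with SCH772984. Of 16 tested genes 13 were higher and 1 lower, with a median of 1.13. The peptide transporter subunit TAP1 (chr6:32845209-32853978) stood at 248, 248 and 268 CPM with SCH772984 and 67.7, 61.2 and 59.8 CPM with compound 1 (2.02 ± 0.09). The immunoproteasome subunit PSMB9 stood at 19.1 to 23.5 CPM against 4.15 to 4.70 CPM (2.31 ± 0.16), and the trimming peptidase ERAP2 at 56.3 to 68.4 CPM against 13.2 to 16.2 CPM (2.05 ± 0.12). TAP1 and PSMB9 lie side by side on opposite strands and overlap. B2M, the light chain of MHC class I, differed less (0.65 ± 0.08), and TAP2 was the lower member (-0.29 ± 0.12). TAP2 lost its call in several alternative settings, among them library size scaling (-0.15) and the replicate number as a block.

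In the promoters matched in RefSeq, the ISRE letters were found in 16 of 24 interferon-stimulated genes (66.7%) and in 6 of 12 MHC class I genes. Over all 27305 promoters of the same length the share was 3.65%, over those of tested genes 2.61%, and over the promoters of genes higher by at least 2-fold it was 3.92%. For the 9 matched cytokine genes the loose NF-κB letters were found in every promoter, and they were also found in 58.0% of all promoters, in 74.8% of those of tested genes and in 73.5% of those of genes lower by at least 2-fold. A match is a description of the letters, not of binding.

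Genes of S phase and of G2/M were lower with SCH772984, with 1 exception among those tested. All 54 tested G2/M genes were lower, 46 of them by at least 2-fold, and of 42 tested S phase genes 41 were lower and USP1 was higher (0.31). The medians were -1.66 and -1.65. RRM2, a subunit of ribonucleotide reductase (chr2:10120698-10131419), stood at 57.1, 57.4 and 54.8 CPM with SCH772984 and 348, 356 and 355 CPM with compound 1 (-2.64 ± 0.08). HJURP, the chaperone of the centromeric histone CENPA, stood at 43.6 to 50.4 CPM against 240 to 252 CPM (-2.40 ± 0.09). CDK1, the kinase of mitotic entry, stood at 38.3 to 46.1 CPM against 159 to 168 CPM (-1.93 ± 0.10). MCM7 was lower by -2.22 ± 0.09, the repair nuclease EXO1 by -2.36 ± 0.15 and the ubiquitin-conjugating enzyme UBE2C by -2.27 ± 0.10.

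Among cyclins, CDKs and CDK inhibitors, 23 of 33 tested genes were lower and 7 higher. CDC25A, the phosphatase that activates CDK2, was lower by -2.34 ± 0.13, and CKS1B, a CDK-binding subunit, by -2.34 ± 0.09. CCND1, the cyclin that carries ERK signals to CDK4 and CDK6 and a list member named after its value was seen, differed less (-0.59 ± 0.09), at 116 to 128 CPM against 171 to 200 CPM. CCNG2, a cyclin of arrested cells, stood at 127, 123 and 106 CPM with SCH772984 and 10.16, 12.5 and 10.96 CPM with compound 1 (3.40 ± 0.12). The CDK inhibitors CDKN1C (2.42 ± 0.27) and CDKN2C (1.24 ± 0.11) were higher as well. The CCAAT letters were found in 31 of 45 matched G2/M promoters (68.9%) and 23 of 33 S phase promoters (69.7%), against 35.7% of all promoters and 36.5% of those of tested genes.

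Genes for making ribosomes formed another group that was lower with SCH772984. Of 82 tested ribosome biogenesis factors 79 were lower and none higher, with a median of -1.02. LYAR stood at 15.6 to 20.7 CPM with SCH772984 and 85.5 to 91.4 CPM with compound 1 (-2.28 ± 0.11), the methyltransferase EMG1 differed by -2.22 ± 0.10 and the pseudouridine synthase DKC1 by -1.85 ± 0.09. The E-box letters CACGTG, the site of MYC and related factors, were found in 26 of 69 matched promoters of this list (37.7%), in 7.43% of all promoters and in 10.4% of those of tested genes. The cytosolic ribosomal proteins themselves differed less, with 51 of 79 lower, none higher, and a median of -0.33. The share called was near the 66.3% of all tested genes, of which 33.7% were higher and 32.6% lower. RPL35 (-0.80 ± 0.08) and RPS14 (-0.77 ± 0.09) were among the lowest, and RPL3 (-0.04, interval from -0.22 to 0.14) and RPLP0 (-0.08, interval from -0.25 to 0.10) were not called. Processed pseudogenes of these genes can take some of their reads.

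The lists of nucleotide synthesis, tRNA synthetase, ATF4 target and glycolysis genes had more members lower than higher, where all tested genes were 33.7% higher and 32.6% lower. Of 31 nucleotide and one-carbon synthesis genes 27 were lower and 2 higher (median -0.97), and of 20 aminoacyl-tRNA synthetases 18 were lower and 1, WARS, was higher by 0.35. TARS stood at 104 to 123 CPM with SCH772984 and 300 to 306 CPM with compound 1 (-1.39 ± 0.09). Targets of the amino acid stress factor ATF4 were lower in 13 of 20 cases and higher in 4, with a median of -1.09. The serine synthesis enzyme PSAT1 was lower by -1.99 ± 0.09, the pseudokinase TRIB3 by -1.88 ± 0.14 and the glutamine transporter SLC1A5 by -1.56 ± 0.09, whereas SESN2, an inhibitor of mTORC1, was higher by 0.95 ± 0.11. On the glycolysis list 17 of 25 genes were lower and 4 higher. The glucose transporter SLC2A3 stood at 1.30 to 1.81 CPM against 12.9 to 18.1 CPM (-3.31 ± 0.23), the pyruvate kinase PKM was lower by -1.03 ± 0.08, and ALDOC was higher by 2.65 ± 0.21.

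Cholesterol and fatty acid synthesis was the metabolic list that was mostly higher with SCH772984. Of 30 tested genes 25 were higher and 2 lower, with a median of 1.26. The sterol reductase TM7SF2 (chr11:65111845-65116384) stood at 102, 96.6 and 108 CPM with SCH772984 and 18.2, 15.1 and 13.9 CPM with compound 1 (2.70 ± 0.12). MSMO1 was higher by 2.59 ± 0.10, INSIG1, which holds the SREBP regulators in the endoplasmic reticulum, by 2.43 ± 0.10, and HMGCS1 by 2.19 ± 0.14. Among members named after their values were seen, LSS was higher by 2.18 ± 0.08 and the regulator SREBF2 by 1.61 ± 0.08. ELOVL6, which lengthens fatty acids, was lower by -1.46 ± 0.25.

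Lysosome and autophagy genes were higher more often than lower. Of 44 lysosomal and V-ATPase genes 31 were higher and 4 lower (median 0.53), and of 38 autophagy genes 21 were higher and 6 lower (median 0.29). Over all tested genes 33.7% were higher and 32.6% lower. PSAP, the precursor of the saposins, stood at 2609, 2533 and 2595 CPM with SCH772984 and 1194, 1048 and 1022 CPM with compound 1 (1.25 ± 0.08). GABARAPL1, a protein of the autophagosome membrane, stood at 29.9 to 30.7 CPM against 5.43 to 6.66 CPM (2.37 ± 0.14). The list's regulator TFEB was higher by 1.73 ± 0.32 and the receptor SQSTM1 by 0.94 ± 0.09, whereas ATG101 was lower by -1.21 ± 0.14.

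Receptor tyrosine kinases were higher with SCH772984 in 17 of 26 tested cases and lower in 4, against 33.7% higher and 32.6% lower over all tested genes, with a median of 0.64. EPHA2 (chr1:16124337-16156087) had the largest difference of the list, in the other direction. It stood at 22.7, 24.8 and 25.3 CPM with SCH772984, 846, 766 and 800 CPM with compound 1 and 888 to 932 CPM with DMSO, a difference of -5.05 ± 0.10 (edgeR adjusted p = 2.85e-19). FGFR3 stood at 150 to 174 CPM against 29.8 to 32.1 CPM (2.35 ± 0.10), the collagen receptor DDR1 at 298 to 326 CPM against 76.3 to 85.5 CPM (1.98 ± 0.09) and EPHA4 at 604 to 662 CPM against 165 to 203 CPM (1.77 ± 0.09). EGFR and ERBB2, named after their values were seen, were higher by 1.39 ± 0.10 and 0.92 ± 0.08. PDGFRB, at 5.53 to 7.01 CPM against 0.106 to 0.646 CPM, was higher by 4.43 ± 0.41.

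Of 18 tested growth factor genes 9 were higher and 5 lower, against 33.7% and 32.6% of all tested genes. LIF, a cytokine of the interleukin 6 family, stood at 4.32 to 5.04 CPM with SCH772984 and 62.3 to 73.7 CPM with compound 1 (-3.85 ± 0.13). The EGFR ligand HBEGF was lower by -1.55 ± 0.15, whereas the ligand BTC stood at 79.1 to 88.1 CPM against 14.2 to 18.3 CPM (2.33 ± 0.11). EREG, another EGFR ligand named after its value was seen, was not called (-0.02, interval from -0.23 to 0.19). FGF2 was higher by 2.87 ± 0.13 and overlaps NUDT6 on the other strand.

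Of 15 tested collagens 12 were higher and 2 lower with SCH772984 (median 1.41). COL3A1 stood at 41.1 to 51.8 CPM against 4.63 to 7.10 CPM (3.07 ± 0.16) and COL5A1 at 36.3 to 37.2 CPM against 4.26 to 7.86 CPM (2.61 ± 0.16), whereas COL6A3 was lower by -1.61 ± 0.10. Of 6 fibroblast markers 4 were tested and all 4 were higher, and their summed level was 1060 to 1210 CPM with SCH772984 and 489 to 547 CPM with compound 1, almost all of it COL1A2. DCN and LUM, which define fibroblasts, had at most 1 count in any library. On the list of matrix proteases and their inhibitors 8 of 20 tested genes were higher and 7 lower, which is near the share over all tested genes. The uPA receptor PLAUR stood at 1.37 to 2.33 CPM with SCH772984 and 30.7 to 42.5 CPM with compound 1 (-4.22 ± 0.20), its ligand PLAU was lower by -2.15 ± 0.09, and the collagenase MMP1 stood at 1.97 to 2.42 CPM against 30.3 to 39.8 CPM (-3.88 ± 0.18). The proteases MMP10 (2.44), PLAT (2.44) and MMP11 (1.37) were higher. ADAM19 was higher by 4.40 ± 0.22, at 19.0 to 21.4 CPM against 0.754 to 1.06 CPM. On the list of epithelial and mesenchymal genes 8 of 18 tested members were lower and 5 higher, which is near the share called over all tested genes (66.3%). Of epithelial genes the keratins KRT18 (-2.25 ± 0.09) and KRT8 (-1.54 ± 0.09), which overlap each other, and the claudins CLDN1 (-0.68) and CLDN4 (-0.60) were lower and the desmosomal DSP (1.06) was higher. Of mesenchymal genes VIM (-0.31), SNAI1 (-0.65), ZEB1 (-0.51) and TGFBI (-1.99) were lower and SNAI2 (2.52 ± 0.19), SPARC (3.35), FN1 (1.36) and TAGLN (0.92) higher. CDH5, an endothelial cadherin, had 5 counts in the SCH772984 libraries together and 60 to 63 in each compound 1 library, a ratio of 50.1 (exact 95% interval 21.1 to 156), and the endothelial markers PECAM1, VWF and TEK had at most 4 counts in any library.

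Regulators of cell death and survival also differed. BMF, a protein that promotes apoptosis, stood at 9.06, 12.3 and 12.5 CPM with SCH772984 and 0.437, 0.431 and 0.213 CPM with compound 1 (4.93 ± 0.32). Of 14 tested BCL2 family genes 4 were higher and 8 lower, against 33.7% and 32.6% of all tested genes. BCL2L11, which encodes BIM, and BBC3, which encodes PUMA, were higher by 1.05 ± 0.11 and 1.12 ± 0.18, whereas the pro-apoptotic PMAIP1 (-2.02 ± 0.22), BID (-1.24), BOK (-0.54), BAK1 (-0.51) and BAX (-0.41) were lower. The survival genes BCL2 and MCL1 were lower by -2.75 ± 0.26 and -0.65 ± 0.08. Of 25 NRF2 targets 14 were higher and 6 lower, against the same shares of all genes. AKR1C3 (5.35 ± 0.30) and AKR1C2 (3.29 ± 0.17), close paralogs that reduce steroids, were higher, and GCLM, which makes glutathione, was lower, at 59.7 to 65.7 CPM against 300 to 354 CPM (-2.38 ± 0.09).

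Several of the largest differences lay in genes outside these pathways. IGFN1, a muscle protein gene (chr1:201190825-201228952), had 834, 955 and 1336 counts with SCH772984 and 0 counts in all 3 compound 1 and all 3 DMSO libraries. Against the floor of 3 counts per library it was at least 253-fold higher. PCDH18, a protocadherin, had 112 to 129 counts against 0 (at least 30.2-fold), and ANGPTL7, which lies within MTOR on the other strand, had 136 to 157 against 0 (at least 36.5-fold). At the same floor, 92 protein-coding genes were higher with SCH772984 while every compound 1 library had at most 3 counts, and the reverse held for 3 genes, DUSP6, TNS4 and RAC2. SAMD11 stood at 72.8, 69.3 and 95.6 CPM against 0.539 to 1.31 CPM (6.51 ± 0.22) and overlaps NOC2L. The chloride channel protein CLIC3 (6.02 ± 0.29), the aldehyde dehydrogenase ALDH8A1 (5.73 ± 0.28), the giant cadherin FAT4 (5.15 ± 0.21), the oxytocin receptor OXTR (4.79 ± 0.15), the lactate dehydrogenase LDHD (4.71 ± 0.24) and the cell cycle brake SFN (4.68 ± 0.24) were also among the highest. AC007325.2 (5.72 ± 0.49) lies on an unplaced scaffold and may share reads with a near-identical copy. On the lower side, outside the lists, were the neurotensin receptor NTSR1, at 8.03 to 9.45 CPM against 173 to 236 CPM (-4.48 ± 0.13), and the hormone STC1, at 0.427 to 0.547 CPM against 10.8 to 12.1 CPM (-4.47 ± 0.27).

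**Figure D3:**
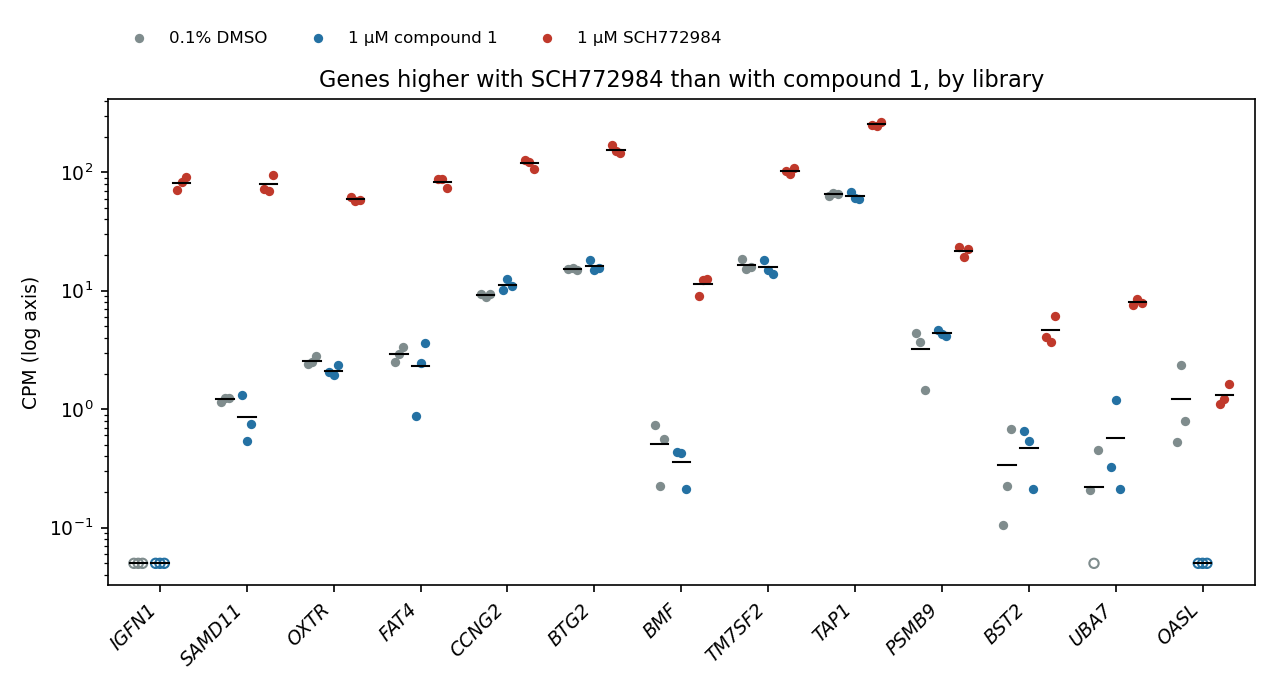
The y axis gives CPM on a log axis and the x axis 13 genes that were higher with SCH772984. Points are single libraries (gray, DMSO; blue, compound 1; red, SCH772984), bars are group means, and open points at 0.05 stand for 0 counts. Red points lie above all blue points in each gene, and OASL is the one gene shown in which the gray points overlap the red ones while the blue points are at 0.

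In a small number of genes the DMSO level lay nearer to SCH772984, which was the case for 65 of the 3689 genes with a difference of at least 2-fold. CD83, a surface protein of activated immune cells, stood at 6.23 to 7.77 CPM with SCH772984, 17.1 to 17.9 CPM with compound 1 and 8.60 to 10.8 CPM with DMSO (-1.29 ± 0.15). NOS1AP, an adaptor of nitric oxide synthase, stood at 22.9 to 33.0 CPM with SCH772984, 10.7 to 13.5 CPM with compound 1 and 17.8 to 20.7 CPM with DMSO (1.21 ± 0.15). For SLC4A8 (1.29 ± 0.20) the DMSO libraries lay between the inhibitors as well, and for ZNF618 (1.13 ± 0.18) they overlapped both.

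A difference was not detected in 4670 genes, but this says that 2 groups were alike only where the interval was narrow. In 383 genes (2.76%) the 95% interval of the difference lay within 1.2-fold. The most abundant of these were the elongation factors EEF1A1 (-0.02, interval from -0.18 to 0.14) and EEF2 (0.05, interval from -0.12 to 0.23), the chaperone CANX (-0.07, interval from -0.25 to 0.11), RPLP0 and RPL3. Under scaling by library size alone EEF2 was called higher (0.19). Of 24 genes commonly used as qPCR references 14 were lower with SCH772984, 3 were higher and 7 were not called, with a range from TFRC (-1.06) to B2M (0.65). The share called was near the 66.3% of all tested genes, of which 33.7% were higher and 32.6% lower.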

How the data were processed

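RNA from 9 MIA PaCa-2 samples was sequenced by Novogene. The authors deposited raw read counts per gene, without normalization, for 58735 genes, all of which matched GENCODE release 29 on GRCh38. The submitters' processing notes name HISAT2 2.0.5, featureCounts 1.5.0-p3 and hg38. The strand setting was not given in the sources used here.

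Samples were grouped by their labels. The 6 inhibitor libraries were fitted in edgeR 4.0.16 (R 4.3.3) with TMM normalization, filterByExpr (minimum count 10, minimum total count 15) and the robust quasi-likelihood test, with Benjamini-Hochberg adjustment over all 13863 genes and a threshold of 0.05. Standard errors follow from the fitted test. The fit was tested on simulated data. Depth was 9464432 to 13887859 counts per library, and counting intervals cover counting error only.

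The members and gene lists were chosen with earlier results of these data known, so lists are described by counts and medians and were not tested. Lists share some members. Named genes were the 12 protein-coding genes with the largest differences in each direction (mean of at least 5 CPM, no overlap between groups). The kinases named for the inhibitors and up to 4 called members per list and direction were added. All tested ERK feedback, NF-κB, cytokine and interferon genes were included as well. Among called protein-coding genes of at least 5 CPM whose DMSO level lay nearer to SCH772984, the 3 largest differences per direction were taken. To these were added the 3 per direction at the floor of 3 counts, the 5 most abundant genes within 1.2-fold, and 3 noncoding genes per direction. A few further list members were named after their values were seen. Some genes that this rule names are not reported here. Of the tested genes, 9825 matched a promoter in the RefSeq table (250 bases before to 50 after the start). Alternatives were library size scaling, RLE factors, other filters, 9 libraries in 1 fit, a replicate block, protein-coding genes only, thinning to 9652741 counts, DESeq2 1.42.0, other thresholds and leaving out each library.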

Additional observations from a re-analysis of the deposited data

How the results depend on the processing

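No gene called in one direction was called in the other under any of the 15 alternative fits. The counts of higher and lower genes stayed within 1.5 times, except that requiring a difference as well left 2293 higher and 1396 lower genes at 2-fold and 2892 lower genes at 1.5-fold, and that a filter of at least 10 counts in every library, which drops genes silent in one group, left 1527 genes higher by at least 2-fold. Leaving out 1 library gave 4286 to 4844 higher and 4187 to 4605 lower genes. Scaling by library size alone raised the median difference of all genes by 0.14 (log2) and gave 5526 higher and 3736 lower genes, so differences under this size depend on the scaling. Under it 16 named genes lost their call, among them TBK1, RELB, NFKB1, IRF2, TAP2, VIM and MT-ATP8, and no named gene changed direction. DESeq2 called 4352 higher and 4376 lower.

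Same-numbered libraries of both groups did not deviate together (correlations of -0.04, 0.11 and -0.07), and the highest correlation, 0.15, joined replicate 3 of SCH772984 with replicate 1 of compound 1. With the replicate number as a block, 4585 genes were higher and 4424 lower.

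Of 331 named genes, 298 kept their side of the threshold in every alternative in which they were tested. TBK1 (12 settings), NFKB1 (8), JUNB and IFITM3 (7 each) were among those that changed side most often. Of 39 list medians, 29 moved beyond their replicate spread under library size scaling and 16 of 38 under the filter of 10 counts in every library. The sign changed for the IKK kinase and TBK1 adaptor list (-0.14 in place of 0.08) and the RAS–RAF–MEK list (-0.02) without replicate 2 of compound 1, for the respiratory chain list (0.0024) under library size scaling, for the epithelial and mesenchymal list in 3 settings (-0.07 to -0.01) and for the 2 tested immune markers (0.41) under the stricter filter. Genes with few counts, such as OASL, are limited by depth.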

Other observations

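Of 404 tested lincRNA genes 157 (38.9%) were higher and 67 (16.6%) lower with SCH772984 than with compound 1, and of 559 antisense genes 218 (39.0%) were higher and 65 (11.6%) lower, whereas protein-coding genes were higher in 33.8% and lower in 35.1% of cases. The noncoding genes were of low level, with median levels of 2.16 and 2 CPM against 31.9 CPM in protein-coding genes, and over all genes in the lowest of 5 equal bins by level 41.15% were higher and 10.1% lower. The part of level in the noncoding counts was not tested. Processed pseudogenes went the other way, with 39 of 328 higher and 111 lower. LINC02593 stood at 21.0 to 34.5 CPM with SCH772984 and 0.108 to 1.17 CPM with compound 1 (5.16 ± 0.32), GACAT2 differed by 4.20 ± 0.26 and AC087516.2 by 3.62 ± 0.30. LINC00941 stood at 0.855 to 1.23 CPM against 15.2 to 19.0 CPM (-3.89 ± 0.22), ROR1-AS1 differed by -3.91 ± 0.36 and AL365181.3 by -2.76 ± 0.16. GACAT2, ROR1-AS1 and AL365181.3 overlap a gene on the other strand. Over all kinds of genes, 134 were called higher while every compound 1 library had at most 3 counts, so that genes of low level could pass the filter through the SCH772984 libraries alone.

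The direction also varied with gene length. In the longest of 5 equal bins by gene length 42.4% were higher and 25.7% lower, against 27.8% and 31.4% in the shortest bin. The SCH772984 libraries were the deeper ones, and with all 6 thinned to 9652741 counts 4616 genes were higher and 4427 lower. The part of gene length in these results was not tested.

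Of the 13 mitochondrially encoded protein genes 10 were higher with SCH772984 and 1, MT-ATP8, was lower (-0.40 ± 0.14), with a median of 0.64. MT-ND4 stood at 5480 to 7224 CPM against 3201 to 3898 CPM (0.89 ± 0.10). Of 45 tested nuclear-encoded respiratory chain genes none was higher and 18 were lower, against 33.7% and 32.6% of all tested genes, with a median of -0.13. Among 10 tested E2F family transcription factors 8 were lower and 1 was higher, where all tested genes were 32.6% lower and 33.7% higher. In the Notch pathway 10 of 19 tested genes were higher and 4 lower. The share called was near the 66.3% of all tested genes, of which 33.7% were higher and 32.6% lower. NOTCH3 stood at 171 to 187 CPM against 40.4 to 42.4 CPM (2.10 ± 0.09), and NRARP was lower by -1.48 ± 0.14.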
